A study of Mus musculus with 85 samples.

Results

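The Ikaros family is a small group of zinc-finger transcription factors with 5 genes in the mouse: Ikzf1 (Ikaros), Ikzf2 (Helios), Ikzf3 (Aiolos), Ikzf4 (Eos) and Ikzf5 (Pegasus). All 5 were taken by name from the 18193 genes represented on the array, where they had 13 probe sets, 2 for Ikzf1 and Ikzf5 and 3 for each of the other members. They were followed in single cells of 5 populations along the route by which blood stem cells arise in the mouse embryo. The 7 endothelial cells (EC) and 7 hemogenic endothelial cells (HEC) came from the caudal part of E10.5 embryos that carry eR1-GFP, a green fluorescent reporter of a Runx1 enhancer. Both were sorted as CD31+Ter119-CD45-CD41-, HEC with and EC without the reporter signal, so that their gates differ in the reporter alone. Hematopoietic cluster cells, the first rounded blood cells budding from the vessel wall, were c-Kit+CD31+CD45+SSEA1- cells of wild-type embryos, from the caudal part at E10.5 (28 cells) and from the aorta-gonad-mesonephros region at E12.5 (16 cells). Fetal liver hematopoietic stem cells (HSC) of wild-type embryos at E14.5 were sorted as Lin- and Mac-1+, with c-Kit, Sca-1 and CD150 present and CD48 absent. These made 26 cells, after a pair of nearly identical arrays was averaged and counted as 1, and 84 cells in all. EC, HEC and the earlier cluster cells share stage and dissected part, but between HEC and cluster cells the gate and the reporter genotype change together. Stage and dissected tissue change together between the cluster populations, and stage, tissue and gate between cluster cells and HSC, so these cannot be told apart.

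Ikaros proteins bind DNA through N-terminal zinc fingers and pair with each other through a separate set at the C-terminus, so the members present in a cell determine which dimers can form. They are known to recruit the nucleosome remodelling and deacetylase (NuRD) complex, and to act in cells of the blood: Ikaros in lymphoid specification and in stem cells, Helios in stem cells and regulatory T cells, Aiolos in B cells and Eos in regulatory T cells. Pegasus is the most divergent member and is known to be expressed outside the blood as well.

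The sequences before the listed transcription starts are shown for the members that had an entry in the RefSeq promoter table. These were Ikzf1 with 2 starts and Ikzf5 with 1. Ikzf1 RNA was found in 1 of 14 endothelial cells (exact binomial interval 0.181 to 33.9%) and Ikzf5 RNA in 4 of 14 (8.39 to 58.1%). The intervals overlap, and a link between these sequences and expression was not tested. Each run holds the 250 bases before the start, 5' to 3' on the gene's strand, in assembly GRCm38.p6. They lie at chr11:11685675-11685924 and chr11:11689927-11690176 on the plus strand for Ikzf1, and at chr7:131410479-131410728 on the minus strand for Ikzf5. Capitals mark matches to an ETS core.
Ikzf1 (upstream listed start): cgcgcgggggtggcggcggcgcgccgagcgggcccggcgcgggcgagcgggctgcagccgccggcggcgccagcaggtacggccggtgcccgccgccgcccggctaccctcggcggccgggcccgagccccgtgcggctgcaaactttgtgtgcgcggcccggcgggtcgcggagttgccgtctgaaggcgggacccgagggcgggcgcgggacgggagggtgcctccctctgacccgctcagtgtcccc
Ikzf1 (downstream listed start): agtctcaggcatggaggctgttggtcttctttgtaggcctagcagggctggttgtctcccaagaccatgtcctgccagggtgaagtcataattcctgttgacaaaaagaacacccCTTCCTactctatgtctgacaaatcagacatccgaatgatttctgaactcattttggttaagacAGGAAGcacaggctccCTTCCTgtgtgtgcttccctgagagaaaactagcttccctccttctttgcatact
Ikzf5: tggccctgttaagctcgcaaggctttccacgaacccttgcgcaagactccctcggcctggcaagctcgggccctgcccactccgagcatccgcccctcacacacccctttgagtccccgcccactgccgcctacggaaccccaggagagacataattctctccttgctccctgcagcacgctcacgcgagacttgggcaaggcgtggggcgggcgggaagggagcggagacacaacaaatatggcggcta
The windows were searched on both strands for AGGAAG (ETS factors), AGATAA (factors of the Gata family), TGTGGT (Runx factors), TGGGAA (the Ikaros core) and CAGCTG (an E-box). The upstream Ikzf1 window was 82% G or C with 44 CpG dinucleotides and held none of these motifs. The downstream window was 47.6% G or C with 1 CpG, and it held AGGAAG 3 times, at -135, -71 and -55 from the start, which 29.5% of 32851 promoter windows of 250 bases did at least once. The Ikzf5 window was 64% G or C with 18 CpG, against medians of 52.4% and 6 over all windows, and it held none of the motifs. The other motifs were found in 9.99% (Gata), 14.05% (Runx), 21.6% (Ikaros core) and 13% (E-box) of all windows. Which of the Ikzf1 starts these cells used was not measured.

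Values are log2 expression values as deposited, with above background meaning over 5. Means and SDs are over cells, so the SD is the spread between cells of a population, and intervals of a share are exact 95% binomial intervals that cover counting error over cells only. Where no cell was above background, the limit printed in place of an interval is 3 cells out of the number examined, an approximate one-sided limit. The labels name no animal, so a population was treated as a single sample and populations were not tested against each other. Differences are between mean log2 values, and members and genes are counted from 1 log2 unit. The number of probe sets above background averaged 5905 in EC, 7712 in HEC, 9943 and 7820 in cluster cells at E10.5 and E12.5, and 6552 in HSC, and the median measured gene was higher or lower along with it, so each difference is read against that of all 10694 genes above background in at least 3 cells. Endothelial markers were found in EC and HEC (8 of 8 genes in at least 1 cell of each) and pan-blood markers in the blood populations (6 of 6 in each). They were not limited to those gates: of the 8 endothelial markers 7 were found in cluster cells of the earlier stage, 5 in those of the later stage and 8 in HSC, with Egfl7 in 28 of 28, 7 of 16 and 26 of 26 cells and Esam in 24 of 26 HSC. The mean level of the endothelial list had a median of 10.92 in EC, 11.96 in HEC, 4.66 and 2.73 in cluster cells at E10.5 and E12.5, and 5.76 in HSC. Of the pan-blood markers 1 was found in EC and 3 in HEC, with Laptm5 in 5 of 7 HEC. Within the 26 HSC, Plek was above background in 3 cells, Vav1 in 11 and Was in 15. Ptprc, Coro1a and Laptm5 were so in 22, 23 and 24. Runx1 was above background in 0 of 7 HEC on its representative probe set. A few cells went against their gate: fetal liver cells 5 and 7 had 0 of 6 pan-blood and 7 and 8 of 8 endothelial markers, E12.5 cluster cells 3, 6 and 10 had all 7 macrophage markers, and EC 3 had 1 of 8 endothelial markers. Selected results for E12.5 cluster cells and HSC are also given without these cells, and the differences of HEC from EC are given with EC 3 only.

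Ikzf1 separated blood cells from endothelial cells more sharply than any other member. It was above background in 64 of 70 cells of the blood populations (91.4%, interval 82.3 to 96.8%) and in 1 of 14 endothelial cells (7.14%, 0.181 to 33.9%). Its values ran from 2.32 over a median of 2.37 to 2.72 in EC. In HEC they ran from 2.31 over a median of 2.34 to 9.57, the highest being a lone cell. Cluster cells at E10.5 ran from 10.19 over 11.99 to 13.58, above every EC and every HEC. Those at E12.5 ran from 4.05 over 11.64 to 14.37. In fetal liver HSC they ran from 2.33 over 9.42 to 12.11, so the blood populations overlapped one another.

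Ikzf1 averaged 11.93 ± 0.72 in E10.5 cluster cells (28 of 28 above background) and 3.41 ± 2.72 in HEC (1 of 7). The difference of mean values was 8.52 beside 0.71 for the median gene, but most HEC were below background, where a value gives no level. With every value under 5 set to 5 in all genes, the difference was 6.28 beside a median of 0.41, the 15th largest positive one of 10694 genes. Among the 3 members measured in at least 3 cells, Ikzf1 and Ikzf2 were at least 1 log2 unit higher in E10.5 cluster cells than in HEC, a size that 43.1% of all measured genes reached in that direction, so the count of members itself does not stand out. On the scale with values under 5 set to 5, Ikzf2 differed by 2.49 and Ikzf5 by 0.35.

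The spread of Ikzf1 within E10.5 cluster cells was small. Its SD of 0.72 ranked 201st from the lowest among the 1589 genes above background in all 28 of these cells, whose median SD was 1.17. Only 12 of 10694 measured genes (0.112%) were above background in all 28 E10.5 cluster cells and in at most 1 of the 14 endothelial cells. Besides Ikzf1 these were Myb, a transcription factor of blood progenitors, Coro1a, Was, Plek and Sash3, which act in the leukocyte cytoskeleton or in signalling, Adcy7, Arhgef6, Celf2, Fam117a, Lrmp and Psmb10. This pattern was set after the values of Ikzf1 were seen, and the genes are listed as a description.

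**Figure D1:**
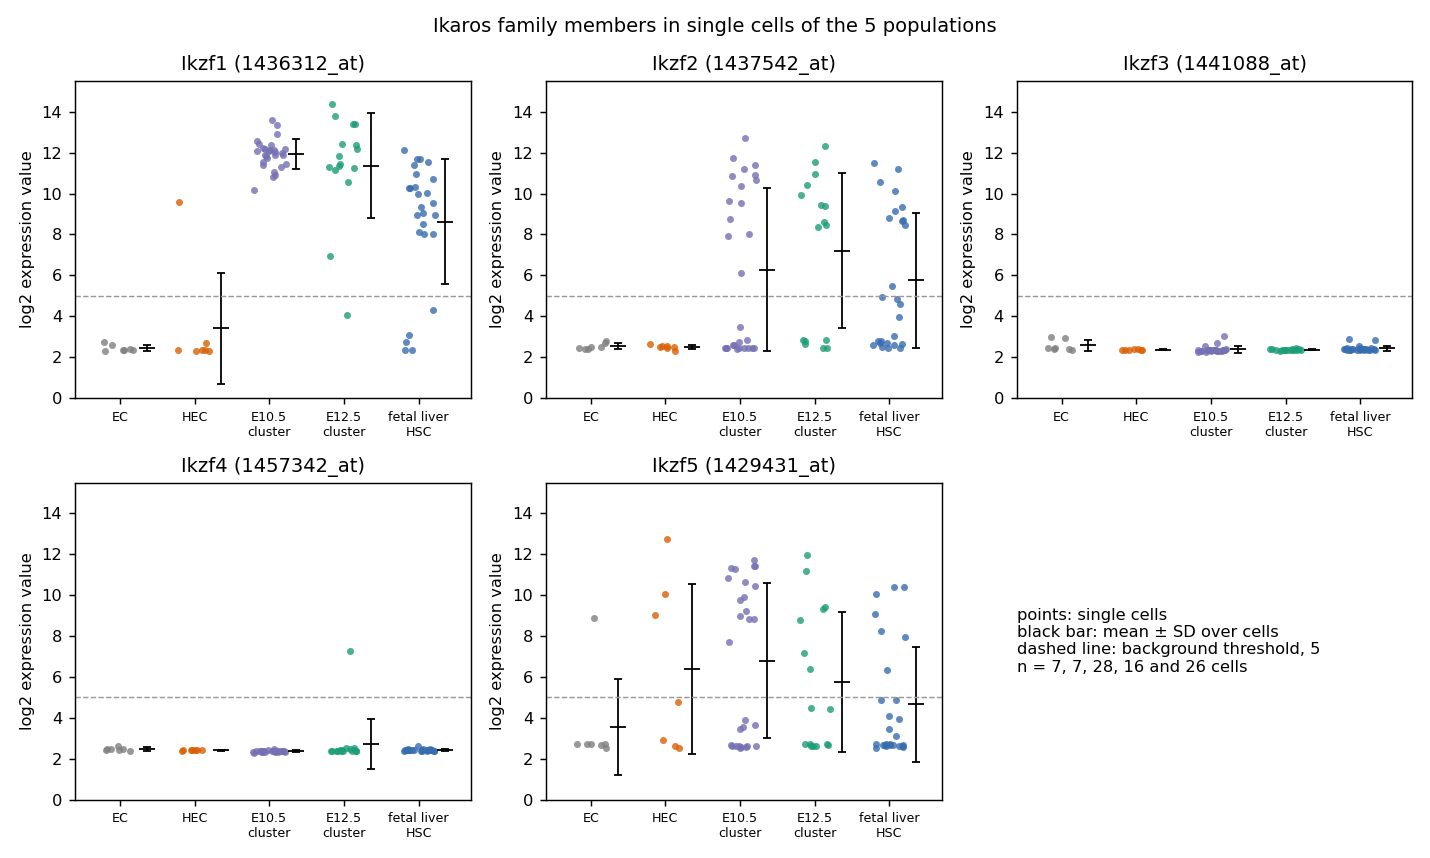
Log2 expression value (y axis) of the representative probe set of each Ikaros family member in every cell of the 5 populations (x axis). Points are cells, black bars the mean and SD over cells, and the dashed line the background threshold of 5. All 28 E10.5 cluster cells lie above 10 for Ikzf1, while Ikzf2 and Ikzf5 split most populations into cells above and below the threshold.

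The Ikzf1 values of HEC and EC lay in the same range apart from 1 cell. Ikzf1 averaged 3.41 ± 2.72 in HEC and 2.45 ± 0.16 in EC (n = 7 each), a difference of 0.97 that was -0.06 without HEC 7. HEC 7 held Ikzf1 at 9.57, with all 8 endothelial markers and 1 of 6 pan-blood markers above background. Ptprc, which encodes CD45, and the blood transcription factors Myb, Spi1 and Runx1 were below background in that cell, and the sinusoidal and lymphatic endothelial gene Lyve1 was at 11.31. Ikzf1 was above background in 0 of 7 EC, which allows a share of up to 42.9% of such cells. The only member at least 1 log2 unit higher in HEC than in EC was Ikzf5, and 45.9% of all measured genes were higher by that size. Ikzf1, at 0.97, lay just under that line, and 7 of the possible single-cell omissions took it past, up to 1.15. No member was at least 1 log2 unit lower, as 7.36% of measured genes were. The median difference of all genes was 0.82.

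High Ikzf1 was also the rule at E12.5. It averaged 11.36 ± 2.58 in E12.5 cluster cells (15 of 16) and 11.93 ± 0.72 in E10.5 cluster cells (28 of 28), a difference of -0.56 beside -0.66 for the median gene. The E12.5 cell below background, at 4.05, had the fewest probe sets above background of its population (4137) and held Ikzf2 at 8.39. E12.5 cluster cells 3, 6 and 10, those with all macrophage markers, had Ikzf1 at 11.46, 10.56 and 11.13, within the range of the other cells, and without them Ikzf1 was above background in 12 of 13. Ikzf1 in E12.5 cluster cells correlated with the number of probe sets above background at r = 0.62 over 16 cells, which is a description of cells that share a gate and an amplification.

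Fetal liver HSC had less Ikzf1 than either cluster population, in a comparison where most genes were lower. It averaged 8.62 ± 3.07 in HSC (21 of 26 cells, 80.8%, interval 60.6 to 93.4%) and 11.36 ± 2.58 in E12.5 cluster cells, a difference of -2.74, and the difference from E10.5 cluster cells was -3.31. These comparisons share the HSC. The medians of all genes were -0.53 and -1.29. Relative to those medians Ikzf1 stood at -2.21 and -2.01, and after quantile normalization the differences were -1.69 and -1.73. All 3 measured members were at least 1 log2 unit lower in HSC than in E12.5 cluster cells, against 36.9% of all measured genes. Only Ikzf1 kept that size after quantile normalization, with -0.71 for Ikzf2 and -0.12 for Ikzf5. With values under 5 set to 5, Ikzf5 was at -0.77, and over the 61 cells with shared values on both control probe sets it reversed to 0.25. Ikzf1 and Ikzf5 were lower by that size in HSC than in E10.5 cluster cells, against 55.5% of measured genes.

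Within the 21 HSC above background Ikzf1 averaged 9.97 ± 1.29, with a highest cell of 12.11, close to the median E10.5 cluster cell at 11.99. Of the 5 HSC below background, cells 5 and 7 were those with endothelial and no pan-blood markers, and both had Ikzf1 near 2.3, the level of EC. The other 3 had pan-blood genes: cell 9 had 3 of 6, with Ptprc at 11.27 and Myb at 10.15, cell 12 had 5 and cell 22 had 4. In the same order they had 3, 3 and 4 of 8 endothelial markers, with Cdh5 at 9.74 in cell 22. Their probe sets above background numbered 4750, 5509 and 5449, where HSC averaged 6552. The part of depth in their low Ikzf1 was not tested. Without cells 5 and 7 Ikzf1 was above background in 21 of 24 HSC, with a mean of 9.15 ± 2.55. The difference from E10.5 cluster cells was then -2.78, and the difference from E12.5 cluster cells, without its 3 macrophage-marker cells too, was -2.29.

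In order of mean level Ikzf1 ran E10.5 cluster, E12.5 cluster, HSC, HEC and EC. The neighbouring differences E12.5 against E10.5 cluster and HEC against EC were smaller than the larger SD over cells of their pair, and that of HSC against E12.5 cluster lay within the SD of HSC.

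Ikzf2 was found in blood cells and in no endothelial cell, in about every other blood cell. It was above background in 35 of 70 cells of the blood populations (50.0%, interval 37.8 to 62.2%) and in 0 of 14 endothelial cells, which allows a share of up to 21.4%. In EC its values ran from 2.38 over a median of 2.49 to 2.77, and in HEC from 2.32 over 2.50 to 2.62. Cluster cells ran from 2.41 over a median of 4.80 to 12.70 at E10.5 and from 2.44 over 8.53 to 12.33 at E12.5, and HSC from 2.44 over 4.72 to 11.50. Blood cells fell into those near the endothelial level and those well above it, and only 4 cells, all HSC, lay between 4 and 6.

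Ikzf2 averaged 6.28 ± 3.97 in E10.5 cluster cells (14 of 28) and 2.50 ± 0.09 in HEC (0 of 7). Because no HEC was above background, the mean of E10.5 cluster cells was at least 2.43-fold higher on the scale of log2 means, taking 5 as the highest level that HEC could have had. E12.5 cluster cells averaged 7.21 ± 3.79 (10 of 16) against 6.28 ± 3.97 in E10.5 cluster cells, a difference of 0.93 where the median gene was at -0.66. No member was at least 1 log2 unit higher in E12.5 than in E10.5 cluster cells, and 5.47% of all measured genes were. Ikzf2 crossed that line to 1.53 without the 3 macrophage-marker cells, of which 1 had Ikzf2 (8.58 in cell 10, against 2.83 in cell 3 and 2.45 in cell 6), and stood at 1.93 after quantile normalization. Leaving out any 1 cell gave 0.59 to 1.25.

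HSC averaged 5.75 ± 3.31 for Ikzf2 (11 of 26), a difference of -1.46 from E12.5 cluster cells, which was -0.71 after quantile normalization, and of -0.53 from E10.5 cluster cells. The difference from E10.5 cluster cells was smaller than that of the median gene, -1.29, and turned to 1.22 after quantile normalization, so no direction is given for it. The mean among cells above background was 9.98 ± 1.77 and 9.94 ± 1.35 in cluster cells at E10.5 and E12.5 and 9.27 ± 1.64 in HSC, which differ by less than the spread between cells. The share of cells with Ikzf2 was 50.0% (30.6 to 69.4%), 62.5% (35.4 to 84.8%) and 42.3% (23.4 to 63.1%) in the same order, with overlapping intervals. Within E10.5 cluster cells Ikzf2 correlated with the number of probe sets above background at r = 0.66 (n = 28), whereas Ikzf1 did at 0.21. In HSC the value was 0.02 for Ikzf2, 0.40 for Ikzf1 and 0.49 for Ikzf5 (n = 26). The part of depth in the split of cluster cells by Ikzf2, and in the levels of members in HSC, was not tested.

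**Figure D2:**
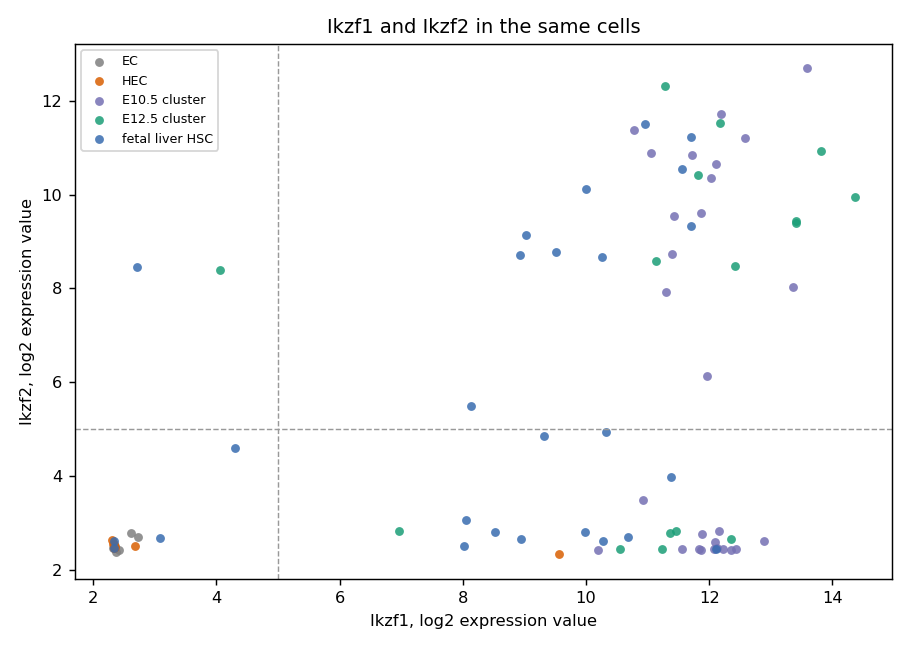
Ikzf1 (x axis) and Ikzf2 (y axis) log2 expression values in the same 84 cells, coloured by population, with dashed lines at the background threshold of 5. Cells with both genes (33) and with Ikzf1 alone (32) are about equally many, and 2 blood cells lie at the upper left with Ikzf2 alone.

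Ikzf2 was rarely seen without Ikzf1. Of the 35 cells with Ikzf2, 33 also had Ikzf1, and the exceptions were E12.5 cluster cell 1 (Ikzf2 8.39, Ikzf1 4.05) and HSC 12 (Ikzf2 8.46, Ikzf1 2.72). Ikzf1 was above background in 64 of the 70 blood cells in any case. Among cells of 1 population the levels of both genes were only weakly related, with r of 0.06 at E10.5 (n = 28) and 0.29 at E12.5 (n = 16) in cluster cells and 0.34 in HSC (n = 26), as a description. Of the cluster cells at E10.5, 14 had both genes and 14 Ikzf1 alone.

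Ikzf5 was found in more endothelial cells than the other members, of which only Ikzf1 was found in any. Ikzf5 was above background in 29 of 70 cells of the blood populations (41.4%, interval 29.8 to 53.8%) and in 4 of 14 endothelial cells (28.6%, 8.39 to 58.1%). In EC its values ran from 2.55 over a median of 2.70 to 8.89, the highest in cell 5 alone. In HEC they ran from 2.54 over 4.79 to 12.76, with 3 of 7 cells above background. Cluster cells ran from 2.52 over 8.27 to 11.72 at E10.5 (15 of 28) and from 2.61 over 4.46 to 11.99 at E12.5 (7 of 16), and HSC from 2.54 over 2.93 to 10.38 (7 of 26). All 5 populations overlapped over nearly their whole range.

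Ikzf5 averaged 6.40 ± 4.17 in HEC and 3.57 ± 2.35 in EC, a difference of 2.83 that was 1.77 without HEC 3 and 1.85 with values under 5 set to 5. It averaged 6.80 ± 3.79 in E10.5 cluster cells, 0.40 above HEC, and this small difference was 1.46 without HEC 3 and 1.01 without HEC 5. It averaged 5.74 ± 3.42 in E12.5 cluster cells, a difference of -1.06 from those at E10.5. This is a size that 39.9% of all measured genes reached downward and that 23 of the possible single-cell omissions brought under 1. It averaged 4.67 ± 2.81 in HSC, a difference of -1.08 from E12.5 and of -2.13 from E10.5 cluster cells. The difference of HSC from E12.5 cluster cells came under 1 in size with 19 of the possible single-cell omissions. Without E12.5 cluster cell 5 it was -0.72, and without E12.5 cluster cell 14 it was -0.66. After quantile normalization the downward differences were -0.24 for E12.5 against E10.5 cluster cells, -0.12 for HSC against E12.5 and -0.36 for HSC against E10.5 cluster cells. Relative to the median gene the differences as deposited were -0.39, -0.54 and -0.84 in the same order.

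Ikzf3 and Ikzf4 were at background in nearly all cells. The representative probe set of Ikzf3 never exceeded 3.05, in 0 of 84 cells above background, which allows a share of up to 3.57%. Another of its probe sets was above background in 1 cell, E12.5 cluster cell 5, at 9.37, and that cell also had Ikzf1 at 13.81, Ikzf2 at 10.93 and Ikzf5 at 11.17. Ikzf4 was above background in 1 of 84 cells (1.19%, interval 0.0301 to 6.46%), E12.5 cluster cell 11, at 7.28. Aiolos and Eos, the products of these genes, are known from lymphocytes, and of the 21 lymphoid genes on the array 9 were above background in at least 3 cells.

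**Figure D3:**
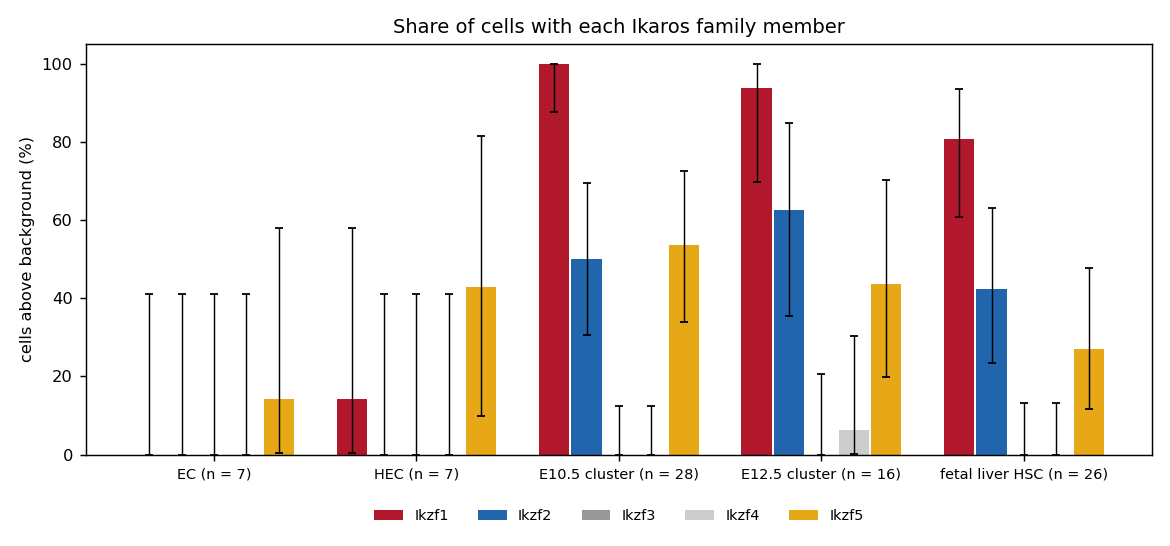
Share of cells above background (%, y axis) for each Ikaros family member in each population (x axis), with exact 95% binomial intervals as error bars. Ikzf1 reaches 100%, 93.8% and 80.8% in the blood populations, Ikzf2 and Ikzf5 lie between 26.9% and 62.5% there, and Ikzf3 and Ikzf4 have no bar or a single small one.

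The number of members per cell was higher in blood cells. Of the 7 EC, 6 had no member above background and 1 had 1, and of the 7 HEC, 3 had none and 4 had 1. All E10.5 and E12.5 cluster cells had at least 1 member. Of the cluster cells at E10.5, 7 had 1 member, 13 had 2 and 8 had 3, and at E12.5 the counts were 4, 7 and 5. In HSC 4 cells had none, 9 had 1, 9 had 2 and 4 had 3. The mean was 0.143 members per cell in EC, 0.571 in HEC, 2.04 and 2.06 in the earlier and later cluster cells, and 1.5 in HSC. In the same order, probe sets above background averaged 5905, 7712, 9943, 7820 and 6552 over the whole array. The part of this in the member counts was not tested. Ikzf1 alone was above background in 64 of 70 blood cells and in 1 of 14 endothelial cells. No cell had more than 3 on the representative probe sets.

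Probe sets of the same gene often disagreed, and the levels of different probe sets cannot be set against each other. Ikzf1 rests on 1436312_at, above background in 65 cells, while 1421303_at was so in 1 cell only, E12.5 cluster cell 11, at 7.92. For Ikzf2, 1437542_at was above background in 35 cells, 1456956_at in 6, of which 5 were shared, and 1421643_at in 2, of which 1 was shared. For Ikzf5, 1429431_at was above background in 33 cells and 1436554_at in 6, with none shared. Counting a cell with any probe set, Ikzf5 was detected in 1 of 7 EC, 3 of 7 HEC, 19 of 28 cluster cells at E10.5 and 8 of 16 at E12.5, and in 8 of 26 HSC. On the mean of both Ikzf1 probe sets the difference of E10.5 cluster cells from HEC was 4.28.

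**Figure D4:**
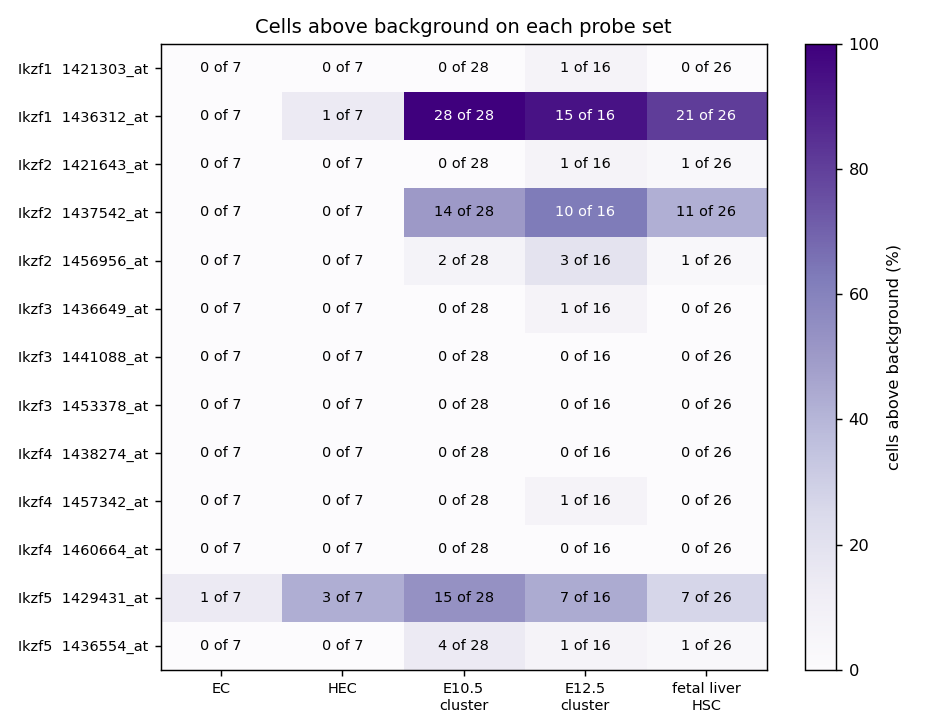
Number and share of cells above background (colour, %) for all 13 probe sets of the 5 genes (rows) in each population (columns). A single probe set carries nearly all detections of Ikzf1 and most of those of Ikzf2 and Ikzf5, while every probe set of Ikzf3 and Ikzf4 is at 0 or 1 cell in each population.

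Genes whose values across all 84 cells were most like those of each member were ranked among 9036 genes by Pearson r. Cells share population and depth, so a high r reflects any gene with the same contrast between populations, and r within a population is given beside it. For Ikzf1 they were Coro1a, an actin regulator of leukocytes (r = 0.87), Rac2, a small GTPase of blood cells (0.84), Pycard, the inflammasome adaptor (0.81), Adcy7, an adenylyl cyclase (0.79), and Arhgef6, a guanine nucleotide exchange factor (0.79). Within E10.5 cluster cells these had r of 0.38, 0.18, 0.36, 0.51 and 0.35, and within HSC 0.71, 0.66, 0.41, 0.73 and 0.60, in the same order. Coro1a was detected in 0 of 7 EC, 1 of 7 HEC, 28 of 28 and 16 of 16 cluster cells of the earlier and later stage, and 23 of 26 HSC, much as Ikzf1 was.

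For Ikzf2 the 5 genes were Acyp1, an acylphosphatase (r = 0.57), Itga4, an integrin subunit (0.55), Elf1, an ETS factor (0.54), Selplg, the P-selectin ligand (0.54), and Gcnt1, a glycosyltransferase (0.54). Within E10.5 cluster cells these had r of 0.60, 0.39, 0.21, 0.54 and 0.62, and within HSC 0.37, 0.45, 0.62, 0.39 and 0.31, in the same order. Itga4 and Selplg were detected in more blood cells than Ikzf2, in 25 and 22 of 28 cluster cells at E10.5, and like it in 0 of 14 endothelial cells. For Ikzf5 the highest was Pbx2, a homeodomain factor (0.47), and the next, Dcakd, Rpp25l, Trp53bp2 and Abcb6, lay between 0.43 and 0.46. In the same order, r within E10.5 cluster cells was 0.47, 0.52, 0.48, 0.61 and 0.48, and within HSC 0.20, 0.02, 0.21, 0.34 and -0.02. By Spearman's rho 2, 1 and 2 of the 5 genes were the same for Ikzf1, Ikzf2 and Ikzf5.

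Subunits of the NuRD complex, the best known partner of Ikaros proteins, were found in all 5 populations. On the values as deposited, their median difference had the direction of the all-gene median in each comparison and was larger in size. Of 13 subunits, all measured, 9 were at least 1 log2 unit higher in HEC than in EC and none lower, with a median of 1.74 beside 0.82 for all genes, of which 45.9% were higher and 7.36% lower. With each array shifted to an equal median 4 were higher and 2 lower. After quantile normalization 1 was higher and 3 were lower, with a median of 0.01, so no direction is given for the subunits here. In E10.5 cluster cells against HEC 6 were higher and 1 lower (median 0.89 beside 0.71), against 43.1% and 15.7% of all genes. Of the same subunits 1 was higher and 9 were lower in E12.5 than in E10.5 cluster cells, against 5.47% and 39.9% of all genes, and the lower ones were 2 after quantile normalization. In HSC against E12.5 cluster cells 1 was higher and 8 were lower, against 7.91% and 36.9% of all genes, and the lower ones were then 4. In HSC against E10.5 cluster cells 12 of 13 were lower, with a median of -2.44 beside -1.29 and 55.5% of all genes lower. After quantile normalization 6 were lower, with a median of -0.63 beside -0.04 for all genes.

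On the values as deposited the exception of at least 1 log2 unit in each of the last 4 comparisons was the same gene, Chd3. It encodes an ATPase of the complex. Some other subunits moved with Chd3 by less. Mta1 was at -0.55 in E10.5 cluster cells against HEC, Gatad2b at 0.22 in E12.5 against E10.5 cluster cells, and Chd4 at 0.22 in HSC against E12.5 cluster cells. Chd3 values ran from 2.59 over a median of 8.97 to 11.07 in EC and from 2.35 over 9.27 to 10.20 in HEC, with 6 of 7 cells above background in both. Cluster cells at E10.5 ran from 2.28 over 2.40 to 8.93, with 3 of 28 above background. In cluster cells at E12.5, 6 of 16 were above background (2.36, median 2.44, highest 9.37), and in HSC 22 of 26 were (2.33, median 8.44, highest 11.82). Most E10.5 and E12.5 cluster cells were thus below background for Chd3, so its differences were taken with every value under 5 set to 5. On that scale Chd3 differed by -3.26 between E10.5 cluster cells and HEC, where the median gene was at 0.41. It differed by 3.25 between HSC and E10.5 cluster cells (median gene -0.80), by 2.28 between HSC and E12.5 cluster cells (median gene -0.35) and by 0.96 between E12.5 and E10.5 cluster cells (median gene -0.40). The last stayed under 1 log2 unit, which it passed on the values as deposited.

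On the values as deposited the difference was -5.22 for E10.5 cluster cells against HEC and 5.20 for HSC against E10.5 cluster cells, and both kept their direction under the other scalings, at -4.71 and -4.62 for the first and at 5.21 and 5.87 for the second. In the first of these comparisons 15.7% of measured genes were at least 1 log2 unit lower, and in the second 5.01% were higher. Chd3 has 1 probe set here. Without HSC 5 and 7 the difference of HSC from E10.5 cluster cells as deposited was 5.45. Chd4, the paralogous ATPase, was detected in all EC and HEC, in 28 of 28 and 16 of 16 cluster cells of the earlier and later stage, and in 24 of 26 HSC. Its mean was 9.84 ± 1.08 in EC, 10.51 ± 1.67 in HEC, 10.68 ± 1.14 and 8.77 ± 2.14 in cluster cells at E10.5 and E12.5, and 8.98 ± 2.16 in HSC. Ikzf1 and Chd3 were found in opposite populations up to E10.5, and in HSC both were found in most cells.

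**Figure D5:**
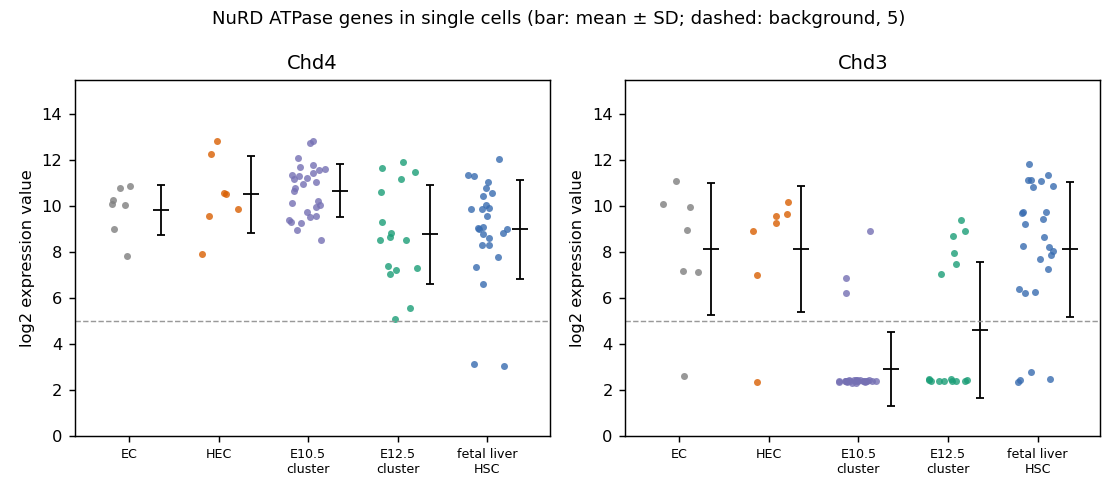
Log2 expression values (y axis) of Chd4 and Chd3, which encode ATPases of the NuRD complex, in single cells of the 5 populations (x axis), with mean and SD over cells as black bars and the background threshold of 5 as a dashed line. Chd3 is above background in 22 of 26 HSC and in 3 of 28 cells of E10.5 clusters. On its representative probe set, the one shown, Chd4 is above background in nearly all cells.

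Other corepressors and remodellers that bind Ikaros proteins were 5: Sin3a, Sin3b, Ctbp1, Ctbp2 and Smarca4. In HEC against EC 2 were higher and 1 lower (45.9% and 7.36% of all genes), and in E10.5 cluster cells against HEC 3 were higher and none lower (43.1% and 15.7% of all genes). In E12.5 against E10.5 cluster cells, and in HSC against E12.5 cluster cells, 3 were lower and none higher, where 39.9% and 36.9% of all genes were lower. In HSC against E10.5 cluster cells 4 were lower and none higher, where 55.5% of all genes were lower. The partner medians in these last 3 comparisons were -1.64, -1.37 and -2.12, beside -0.66, -0.53 and -1.29 for all genes. After quantile normalization 3, 1 and 2 of the partners were lower, in the same order. A list of 5 genes is too small to set these counts apart from the shares of all genes. The corepressor gene Ctbp1 averaged 11.52 ± 0.90 in HEC (7 of 7) and 6.46 ± 2.55 in EC (5 of 7), a difference of 5.06 that was 4.08 and 3.16 under the other scalings. Sin3a averaged 6.49 ± 2.94 in E10.5 cluster cells (19 of 28) and 3.33 ± 1.83 in HEC (1 of 7), and was above background in 4 of 26 HSC.

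Of 24 genes of the lymphoid program, in which Ikaros is best known, 21 were on the array with a probe set of their own and 9 were measured. Of the genes of committed lymphocytes, Dntt, Ebf1, Pax5, Igll1, Cd79a, Bcl11b and Ptcra were above background in 0 of 84 cells, Rag1 in 1 cell of E10.5 clusters, and Rag2, Ccr9, Vpreb1 and Cd3e in 1 cell of E12.5 clusters each. Cd3g was above background in 3 of 16 cluster cells at E12.5. In E10.5 cluster cells against HEC 5 of the 9 measured were higher and 3 lower, with a median of 1.01 beside 0.71, and 43.1% and 15.7% of all genes were. Satb1, a chromatin organiser of lymphoid cells, was detected in 0 of 7 HEC, in 20 of 28 cluster cells at E10.5 and in 6 of 26 HSC. Its mean was 3.55 ± 2.33 in HSC and 7.40 ± 3.62 in E10.5 cluster cells, a difference of -3.85 that was -2.58 with values under 5 set to 5. Cd79b, a B-cell receptor component, was detected in 20 of 28 and 9 of 16 cluster cells at E10.5 and E12.5 and in 11 of 26 HSC, while its partner gene Cd79a was in none. Flt3, a cytokine receptor of lymphoid-primed progenitors, was detected in 7 of 28 cluster cells at E10.5, in 2 of 16 at E12.5 and in 7 of 26 HSC. Notch1 went the other way, at 6.02 ± 2.80 in E10.5 cluster cells and 12.18 ± 0.75 in HEC, a difference of -6.17.

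Of 14 blood transcription factors 7 were at least 1 log2 unit higher and 2 lower in E10.5 cluster cells than in HEC, with a median of 0.97 beside 0.71 for all genes, of which 43.1% were higher and 15.7% lower, so these counts are near those shares. Myb came closest to Ikzf1, with 12.05 ± 1.41 in E10.5 cluster cells (28 of 28) and 2.51 ± 0.10 in HEC (0 of 7). Spi1, which encodes PU.1, was detected in 25 of 28 cluster cells at E10.5 and 0 of 7 HEC. In HSC against E10.5 cluster cells 9 of the 14 were lower and 1, Gfi1, was higher, at 9.87 ± 4.40 in HSC (20 of 26) and 3.20 ± 2.83 in E10.5 cluster cells (3 of 28). Of all genes 55.5% were lower and 5.01% higher. After quantile normalization 2 of the 14 were lower and 5 higher.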

How the data were processed

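RNA of single sorted mouse cells was amplified and hybridised to 1 Affymetrix array of 45101 probe sets per cell. The deposited values are log2 expression values that the authors made with GCRMA and affy. Both tools are named per the submitters' processing notes, and their versions are not given in the sources used here. The deposited log2 values ran from 2.19 to 17.86, and 17.6% of them were above 5. Precision is limited by the number of arrays. Control probe sets held shared values on both of 2 controls in 61 of 84 cells, and no source used here states that scaling.

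Probe sets were named from the platform annotation: 34958 had 1 symbol, 932 several and 9211 none. For each gene the representative probe set was that of highest mean, taken over population means. HSC arrays 20 and 21 (r = 0.991, next pair 0.859) were averaged. The members and lists were chosen with earlier results of these data known. Named genes were the 5 members, any list member, and for each member above background in at least 10% of cells the 5 genes of highest r. Marker lists of T cells, B cells, germ cells, erythroid cells, megakaryocytes and hepatocytes were fixed as well. Few of their genes were measured: 1 of 4, 1 of 5, 0 of 3, 1 of 4, 4 of 4 and 1 of 4 on the array. Alternatives were other scalings, thresholds, probe-set rules and left-out cells. The difference script was tested on simulated data. Python 3.11.15, pandas 2.3.3, numpy 2.4.6, scipy 1.17.1 and matplotlib 3.10.9 were used. Proteins of the members were not used here.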

Additional observations from a re-analysis of the deposited data

Results flagged for a closer look

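In HEC, Ikzf1 in cell 7 was 9.57 and the nearest of the other 6 cells was at 2.67, a gap that took up nearly the whole range of the population. In EC, Ikzf5 in cell 5 was 8.89 and the nearest of the other cells was at 2.72. Both passed Dixon's criterion for 7 values, with the gap at 0.95 and 0.97 of the range and a critical value of 0.568. The criterion assumes normally distributed values, whereas the other cells sat at background. A lone detected cell then passes almost by construction, so no chance rate is given.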

How the results depend on the processing

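Each population is 1 sample, so the limits are those of single cells, and a value under 5 gives no level. No paired analysis was possible because the replicate numbers in the labels only number cells and no test was made. The difference of Ikzf5 between HSC and E12.5 cluster cells, -1.08, reversed to 0.25 when only the 61 cells with shared values on both controls were kept, and the cause was not tested. The difference of Ikzf1 between E10.5 cluster cells and HEC, 8.52, was 6.28 with values below background set to 5 and 4.28 as the mean of both probe sets, of which 1 was at background in nearly all cells. The other 101 alternative values of member differences moved by less than the SD over cells. That allowed a call to be lost, as for Ikzf2 and Ikzf5 in HSC against E12.5 cluster cells under quantile normalization (-0.71 and -0.12), and changes of sign in uncalled differences: under quantile normalization Ikzf2 in HSC against E10.5 cluster cells was 1.22 and Ikzf5 in E10.5 cluster cells against HEC was -0.29. Leaving out 1 cell at a time (553 values) gave 8.33 to 9.54 for Ikzf1 in E10.5 cluster cells against HEC, -3.45 to -3.05 in HSC against E10.5 cluster cells, -3.23 to -2.49 in HSC against E12.5 cluster cells and 3.55 to 3.93 for Ikzf2 in E10.5 cluster cells against HEC. Of the alternative cell counts 137 lay inside the exact 95% interval of the count as reported, which allows smaller changes such as 12 in place of 14 E10.5 cluster cells for Ikzf2 with a threshold of 8. The other 3 lay outside it: Ikzf1 was detected in 16 of 16 cells at E12.5 with a threshold of 4 and after quantile normalization, and Ikzf4 in 0 with a threshold of 8. Settings chosen after seeing the data were the counts without cells that went against their gate, in which no member count moved beyond its interval, the other scalings of the gene lists, and the differences of all genes with values under 5 set to 5.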
